A study of Mus musculus with 8 samples.

Results

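The transcription factors of the immediate-early response were followed in bone marrow-derived macrophages (BMDM) exposed to bilirubin, the end product of heme breakdown. The 10 genes were taken from the gene table by symbol, 10 of its 53819 genes, and comprised the AP-1 genes *Fos*, *Fosl2*, *Jun*, *Junb* and *Jund*, the early growth response genes *Egr1* and *Egr2* with their co-repressor *Nab2*, and the stress-responsive basic leucine zipper genes *Atf3* and *Maff*. Marrow came from 4 female BALB/cJ mice aged 8 weeks, and M-CSF, the growth factor that drives marrow cells to become macrophages, was given at 25 ng/mL for 5 days before treatment. From each mouse, 1 culture then received 2.5 µM bilirubin and 1 received only the vehicle, DMSO, for 48 h, which gave 4 vehicle and 4 bilirubin libraries of poly-A-selected RNA, and no genetic change or other stimulus set the groups apart. Both cultures of a mouse were compared with each other, and the study asked with these libraries how bilirubin alters the macrophage.

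AP-1 is a dimer of basic leucine zipper proteins. FOS proteins cannot pair with themselves and bind DNA with a JUN partner, whereas JUN proteins also pair with each other, and the members differ in how strongly they activate transcription. EGR proteins are zinc finger factors that bind GC-rich sites, and NAB1 and NAB2 bind to them and repress their activity. *Fos*, *Junb*, *Egr1* and *Egr2* are classical immediate-early genes, transcribed within minutes of a signal through the MAP kinases without new protein synthesis and soon shut off again, so an RNA measurement after 48 h reads their level long after the addition of a compound. In macrophages, M-CSF, adhesion and microbial products all induce these genes.

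Counts on genes numbered 37747315 to 47071714 in vehicle libraries and 34142781 to 41054034 in bilirubin libraries, the fewest in the bilirubin culture of mouse 1. Among the 13722 genes with enough counts for a test, 616 (4.49%) were higher with bilirubin and 417 (3.04%) were lower, by edgeR's quasi-likelihood test with the mouse in the model and a Benjamini-Hochberg adjusted p under 0.05. The 4 bilirubin libraries all lay above the 4 vehicle libraries for 814 genes (5.93%) and all below for 644 genes (4.69%). Mouse 1 stood apart from the rest, as 1910 genes passed without its cultures and 1033 with them. Without mouse 2, 3 or 4, 634, 377 and 441 genes passed. Results that rest on mouse 1 are given with and without it. Since mouse 1 was singled out by these counts, its omission was chosen on the same data. Adjusted p-values without mouse 1 are therefore descriptive. Of the changed genes, 59.6% were higher under TMM scaling, against 48.7% with scaling by library size alone. Summed over 9 macrophage markers, expression was 24536 to 24868 CPM (counts scaled to a common library size by TMM) in vehicle and 28948 to 31027 CPM in bilirubin libraries, with *Adgre1*, *Itgam*, *Lyz2* and *Cd14* higher. The part of these markers in the results was not tested. Markers of other cells were low. Those of neutrophils summed to 11.5 to 14.2 CPM with vehicle and 20.2 to 32.8 CPM with bilirubin, nearly all *S100a8* (log2 fold change 1.07), while *Ly6g* had 0 to 3 counts and *Retnlg* 0. Dendritic cell markers summed to 0.0235 to 0.159 CPM with vehicle and, without overlap, to 0.194 to 0.647 CPM with bilirubin, none with enough counts for a test. Lymphocyte markers summed to at most 0.0458 CPM in vehicle and 0.0575 CPM in bilirubin libraries (*Cd3g*, *Ncr1* and *Nkg7* at 0). Those of mast cells, basophils and eosinophils summed to 1.74 to 2.78 CPM in vehicle and 2.29 to 3.60 CPM in bilirubin libraries (*Mcpt8*, *Fcer1a* and *Ms4a2* at 0), those of stroma and endothelium to 2.36 to 6.72 and 1.49 to 6.98 CPM with *Lum* at 0, and those of erythroid cells and megakaryocytes to 0.231 to 0.619 and 0.125 to 0.997 CPM.

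The promoters of *Fos*, *Junb* and *Egr2* are shown because these were the genes of the group whose RNA was higher with bilirubin in all 4 mice. Of all tested genes, 14.5% were also higher in all 4 mice. Each is a RefSeq window of 250 bases before and 50 bases after a transcript start, taken from a table built on GRCm38.p6, and each matched GRCm39 exactly at 1 place, given here on the sense strand. Capitals mark the match to an NFkB site in *Fos* (214 bases before the start, read on the opposite strand) and to a CArG box, the binding sequence of serum response factor, in *Egr2* (72 bases before the start). *Junb* held no match to any of the motifs searched.
Fos promoter, chr12:85520414-85520713, plus strand, 6 bases from the start of its main transcript: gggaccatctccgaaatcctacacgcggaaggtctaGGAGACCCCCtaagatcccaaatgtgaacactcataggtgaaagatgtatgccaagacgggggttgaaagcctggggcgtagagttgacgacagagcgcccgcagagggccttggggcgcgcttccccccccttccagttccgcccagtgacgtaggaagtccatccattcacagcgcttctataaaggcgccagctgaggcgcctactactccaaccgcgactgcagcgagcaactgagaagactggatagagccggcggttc
Junb promoter, chr8:85705328-85705627, minus strand, 30 bases from the start of its main transcript: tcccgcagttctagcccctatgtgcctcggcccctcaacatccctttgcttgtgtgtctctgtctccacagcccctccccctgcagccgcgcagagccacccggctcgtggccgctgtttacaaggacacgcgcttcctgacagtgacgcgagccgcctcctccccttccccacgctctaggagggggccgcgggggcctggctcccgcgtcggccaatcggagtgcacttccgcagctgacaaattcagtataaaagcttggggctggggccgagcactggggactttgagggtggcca
Egr2 promoter, chr10:67373449-67373748, plus strand, 7 bases from the start of its main transcript: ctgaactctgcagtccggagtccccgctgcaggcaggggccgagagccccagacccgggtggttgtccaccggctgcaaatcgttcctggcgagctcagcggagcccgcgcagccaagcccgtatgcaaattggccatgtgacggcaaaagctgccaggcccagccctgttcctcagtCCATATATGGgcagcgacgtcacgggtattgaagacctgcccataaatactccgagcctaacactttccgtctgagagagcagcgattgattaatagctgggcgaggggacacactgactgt

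These windows were rich in G and C, at 58.7% in *Fos*, 65.3% in *Junb* and 60% in *Egr2*. Of the 10 genes, 9 were searched, all but *Egr1*, with 15 windows between them. The search covered both strands for the AP-1 site TGANTCA, the cAMP response element TGACGTCA, the CArG box, the EGR site GCGNGGGCG and the NFkB site. The AP-1 site was in the windows of 0 of the 9 genes, against 7.81% of all 32851 RefSeq windows. The CArG box was in 1 gene (*Egr2*, 1.63% of all windows), the cAMP response element in 1 (*Maff*, 1.79%), the EGR site in *Fosl2* and *Maff* (5.55%) and the NFkB site in *Fos*, *Fosl2* and *Maff* (4.51%). A gene counted if any of its windows matched, whereas each percentage is over single windows, so the units differ. A match is a description of letters in a short window and was not tied to binding, and enhancers or promoter bases farther upstream were not searched.

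All 10 genes had enough counts to be tested. *Fos* and *Junb* were higher with bilirubin, *Nab2* was lower, and *Fosl2*, *Jun*, *Jund*, *Egr1*, *Egr2*, *Atf3* and *Maff* did not pass the threshold. The changes that passed were small, none above 1.37-fold. The median log2 fold change was -0.02 over the 10 genes and -0.0018 over all genes tested. Without mouse 1, *Fos*, *Junb* and *Nab2* passed again and *Egr1* was also lower. In bulk RNA, a change in how many cells transcribe a gene and a change in the amount of its RNA per cell cannot be told apart.

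*Fos* encodes c-FOS, the prototype FOS partner of AP-1 (ENSMUSG00000021250, GRCm39 chromosome 12, 85520658 to 85524047, plus strand). With vehicle it was measured at 91.0, 102, 119 and 94.1 CPM in mice 1 to 4, and with bilirubin at 118, 136, 158 and 142 CPM in the same order. Each bilirubin culture lay above the vehicle culture of its own mouse, although the groups overlapped because the vehicle culture of mouse 3 exceeded the bilirubin culture of mouse 1. The mean rose from 101 ± 12.3 to 139 ± 16.4 CPM (SD, n = 4 each). The fitted log2 fold change was 0.45 ± 0.04 (SE) and its adjusted p 0.000594 (edgeR). The change within each mouse was 0.38, 0.42, 0.41 and 0.59 on the log2 scale. *Fos* passed in all 12 alternative settings, with log2 fold changes of 0.40 to 0.47 and adjusted p-values up to 0.0181, and without mouse 1 its log2 fold change was 0.47 (adjusted p = 2.62e-05). The coding transcript *Fos*-201 held 90.6% ± 1.38 of the gene's counts with vehicle and 90.5% ± 1.44 with bilirubin (SD, n = 4 each).

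*Junb* encodes a JUN partner that activates many AP-1 sites more weakly than c-JUN (ENSMUSG00000052837, chromosome 8, 85701113 to 85705359, minus strand). Mice 1 to 4 had 100.3, 103, 114 and 111 CPM with vehicle and 139, 116, 136 and 164 CPM with bilirubin. The groups did not overlap, though the lowest bilirubin culture, that of mouse 2, lay only just above the highest vehicle culture. The mean rose from 107 ± 6.38 to 139 ± 19.6 CPM (SD, n = 4 each). The fitted log2 fold change was 0.36 ± 0.06 (SE), with an adjusted p of 0.0112 (edgeR). Mice 1 and 4 changed most, by 0.47 and 0.56 on the log2 scale, and mice 2 and 3 by 0.17 and 0.25. *Junb* passed in 10 of 12 alternatives, whose adjusted p ranged from 2.51e-09 to 0.0616, and it did not pass without mouse 3 (0.0562) or without mouse 4 (0.0616), while without mouse 1 its adjusted p was 0.00470. On the other strand *Junb* shares 1238 bases with *Prdx2*, a peroxiredoxin gene, and how strand was used in counting is not given in the sources used here. *Prdx2* itself had a log2 fold change of 0.10 (adjusted p = 0.190).

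**Figure D1:**
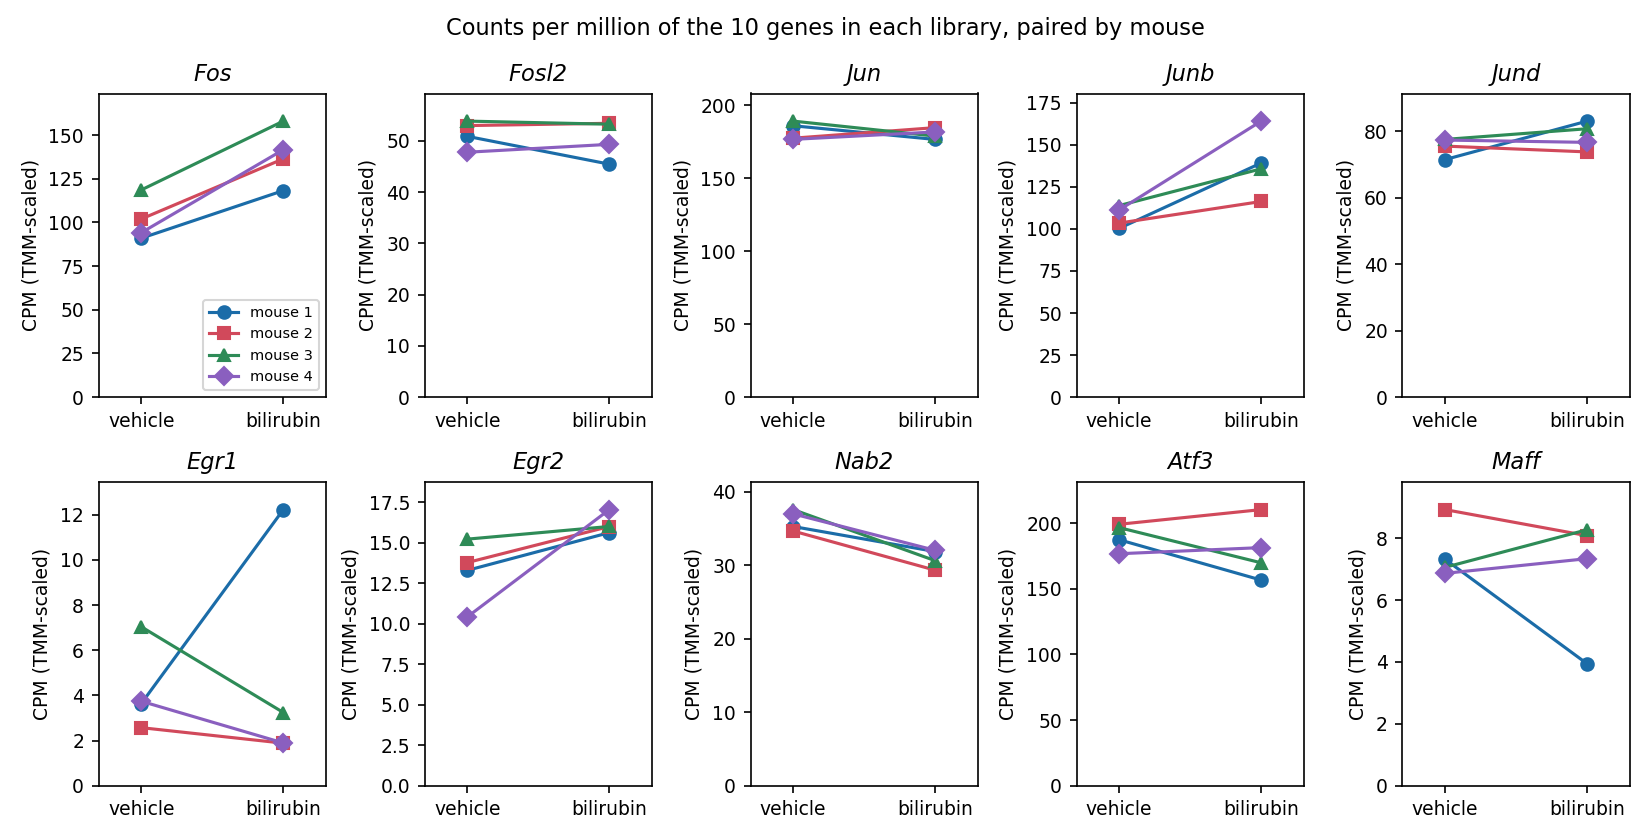
CPM (TMM-scaled, linear axes from 0) of the 10 genes, 1 panel a gene, with lines joining the vehicle and bilirubin culture of each of the 4 mice. *Fos* rose and *Nab2* fell along all 4 lines, and *Egr1* was at 12.2 CPM with bilirubin in mouse 1 and lower with bilirubin than with vehicle in the other 3 mice.

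The other JUN genes did not pass the threshold. *Jun* encodes c-JUN, the founding JUN protein (chromosome 4, 94937271 to 94940459, minus strand). It was at 186, 177, 189 and 177 CPM with vehicle and 177, 185, 179 and 182 CPM with bilirubin, so the groups overlapped and 2 of 4 mice were higher. Its log2 fold change was -0.01 with an approximate 95% interval of -0.09 to 0.06, and its adjusted p was 0.889. *Jund*, a JUN gene that most cells express constitutively (chromosome 8, 71151599 to 71153265, plus strand), was at 71.5, 75.5, 77.5 and 77.3 CPM with vehicle and 83.0, 73.8, 80.7 and 76.6 CPM with bilirubin. Here too 2 of 4 mice were higher, mouse 1 the most, and the log2 fold change was 0.06 with an interval of -0.04 to 0.15 (adjusted p = 0.574). All counts of *Jun*, *Junb* and *Jund* (100%) were on a single transcript each.

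*Fosl2* encodes FRA-2, a FOS protein that lacks the strong activation domain of c-FOS (chromosome 5, 32292707 to 32315186, plus strand). Its levels were 50.9, 53.0, 53.8 and 47.8 CPM with vehicle and 45.4, 53.4, 53.2 and 49.3 CPM with bilirubin. The groups overlapped, 2 of 4 mice were higher, and the log2 fold change was -0.03 (interval -0.12 to 0.06, adjusted p = 0.783). *Fosb* and *Fosl1*, the remaining FOS genes, belong to the list of related factors and moved in different ways. *Fosb*, which also yields the truncated protein delta-FOSB, had 64, 63, 64 and 79 counts with vehicle and 18, 12, 13 and 18 counts with bilirubin in mice 1 to 4. In contrast to *Fos*, it was lower in all 4 mice with no overlap, and fell by 1.96 on the log2 scale (SE 0.27, adjusted p = 0.00341), passing in all 12 alternatives. *Fosl1*, which encodes FRA-1, was at 6.98, 9.64, 9.08 and 8.75 CPM with vehicle and 4.58, 14.0, 14.4 and 14.5 CPM with bilirubin. *Fosl1* was lower in mouse 1 and higher in the other 3, with a log2 fold change of 0.37 (adjusted p = 0.333) over all mice and 0.64 (adjusted p = 0.000202) without mouse 1.

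Levels of different genes were set side by side in TPM (abundance scaled for transcript length and depth), summed over the transcripts of a gene. With vehicle the order of the means was *Atf3* (238), *Fos* (105), *Junb* (102), *Jun* (94.0), *Jund* (78.4), *Nab2* (24.7), *Fosl2* (14.5), *Egr2* (9.13), *Maff* (6.66) and *Egr1* (2.13 TPM). *Fos*, *Junb* and *Jun* overlapped with their neighbours in that order, as did *Egr2* with *Maff*, while the ranges of the other neighbours were apart. *Atf3* led with 222 to 248 TPM, and *Egr1* was last with 1.28 to 3.50 TPM. With bilirubin *Fos* (120 to 155 TPM) and *Junb* (105 to 146 TPM) overlapped each other and no longer *Jun* (87.7 to 93.1 TPM), which instead overlapped *Jund* (72.7 to 88.3 TPM). These *Fos* levels include *Fos*-202, which has no defined coding sequence, at 22.2 to 40.7 TPM with vehicle and 27.2 to 41.1 TPM with bilirubin. *Fos*-201 alone was at 67.1 to 84.0 TPM with vehicle, below *Jun* at 91.0 to 97.1 TPM. With bilirubin *Fos*-201 was at 89.4 to 112 TPM and overlapped *Jun*. *Egr1* then spread from 0.902 to 6.17 TPM and overlapped *Maff* at 3.59 to 7.09 TPM. This ordering is descriptive and was not tested.

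**Figure D2:**
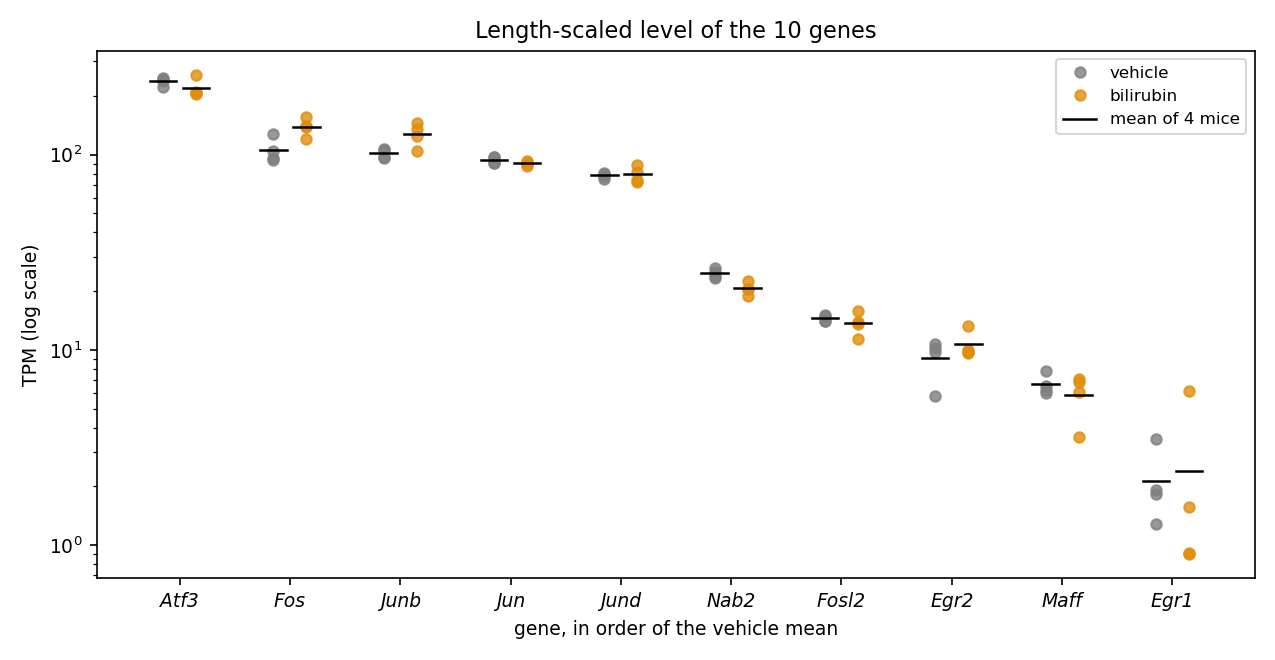
Gene level in TPM (log axis), summed over transcripts, for the 10 genes in order of their vehicle mean, with a point for each of the 4 libraries of a group and a line at the mean. *Atf3* was at the top in both groups, and the points of *Fos* and *Junb* overlapped those of *Jun* with vehicle and lay above them with bilirubin.

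The make-up of each family followed from these values. FOS family RNA summed to 129 ± 15.6 TPM with vehicle and 163 ± 19.9 TPM with bilirubin, and JUN family RNA to 274 ± 7.95 and 297 ± 21.3 TPM (SD, n = 4 each). *Junb* made up 35.9%, 36.6%, 37.8% and 38.1% of JUN family RNA with vehicle in mice 1 to 4 and 42.7%, 39.1%, 42.2% and 47.3% with bilirubin. Its share was thus higher in 4 of 4 mice, by 2.49 to 9.21 percentage points, and those of *Jun* (34.3% to 30.5% on average) and *Jund* (28.6% to 26.7%) were lower in 4 of 4. *Fos* made up 81.7% ± 1.98 of FOS family RNA with vehicle and 85.2% ± 2.05 with bilirubin and was higher in 3 of 4 mice, mouse 3 being the exception. *Fosl2* went from 11.4% to 8.37% and *Fosb* from 0.544% to 0.138%, both lower in 4 of 4 mice, and *Fosl1* from 6.40% to 6.32%. In a two-sided exact permutation test over the pairs, the 5 shares that moved one way in every mouse had p = 0.125, the smallest that 4 pairs allow (0.175 after adjustment over 7 shares), *Fos* had p = 0.25 and *Fosl1* p = 1, so this design could not reach 0.05 for a share. Shares within a family add up to the whole, so a rise in some lowers the rest, and the 5 shares are not independent. In CPM, *Jun*, *Jund* and *Fosl2* were each higher with bilirubin in 2 of 4 mice.

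**Figure D3:**
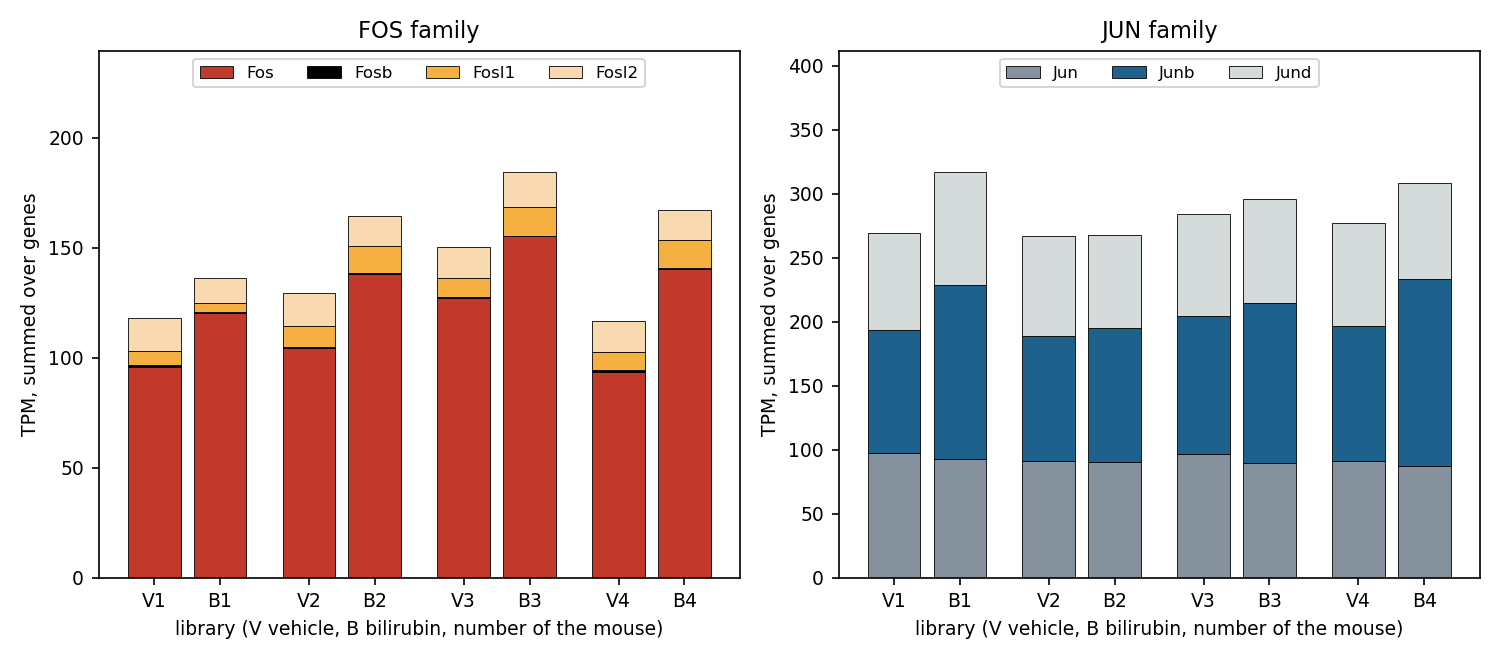
FOS family and JUN family RNA in each library, in TPM stacked by gene, with the vehicle (V) and bilirubin (B) bars of a mouse side by side. *Fos* filled most of each FOS family bar, and the *Junb* segment was taller with bilirubin in all 4 mice.

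With vehicle, the EGR genes had lower mean TPM than the AP-1 genes among the 10. *Fosl1* and *Fosb*, outside the 10, were at 8.21 and 0.691 TPM against 9.13 TPM for *Egr2*. *Egr2*, a factor of macrophage and Schwann cell differentiation (ENSMUSG00000037868, chromosome 10, 67371305 to 67378018, plus strand), was at 13.3, 13.8, 15.2 and 10.4 CPM with vehicle and 15.6, 16.0, 16.0 and 17.0 CPM with bilirubin. The groups did not overlap in CPM, the lowest vehicle culture and the highest bilirubin culture both being those of mouse 4. The log2 fold change was 0.31 ± 0.10 (SE), with an unadjusted p of 0.0161 and an adjusted p of 0.125 (edgeR), so *Egr2* did not pass, and it passed in 1 of 12 alternatives, the one with no filter on low counts (adjusted p = 0.0102). The change was 0.71 in mouse 4 and 0.07 to 0.23 in the other 3 mice, and without mouse 4 the log2 fold change was 0.17 (adjusted p = 0.379). In TPM *Egr2* was lower with bilirubin in mice 2 and 3, at 9.68 and 9.72 against 10.2 and 10.8 TPM. Its transcripts were divided unevenly between cultures, *Egr2*-201 holding 64.4% to 94.8% of the counts with bilirubin and 74.0% to 91.4% with vehicle.

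*Nab2* encodes the co-repressor that EGR proteins recruit and that limits their activity (ENSMUSG00000025402, chromosome 10, 127496786 to 127504458, minus strand). It was at 35.3, 34.7, 37.6 and 37.0 CPM with vehicle and 31.9, 29.3, 30.6 and 32.1 CPM with bilirubin. All bilirubin cultures lay below all vehicle cultures. The mean fell from 36.1 ± 1.38 to 31.0 ± 1.26 CPM (SD, n = 4 each). The fitted log2 fold change was -0.22 ± 0.05 (SE), with an adjusted p of 0.0232 (edgeR), and the changes within mice were -0.15, -0.24, -0.29 and -0.21. *Nab2* passed in 8 of 12 alternatives, with adjusted p-values from 0.00426 without mouse 1 to 0.165 without mouse 3, and it did not pass without mouse 2 (0.104), without mouse 4 (0.116) or with an offset for transcript length (0.106). *Nab2*-201 held 62.8% ± 4.71 and *Nab2*-202 37.1% ± 4.59 of the counts with vehicle, against 59.4% ± 3.56 and 40.5% ± 3.59 with bilirubin (SD, n = 4 each), differences smaller than the spread between mice. The gene overlaps *Stat6* and *Nemp1* on the other strand by 77 and 1689 bases, and neither passed the threshold (log2 fold changes of -0.04 and -0.05). *Nab1*, the sister co-repressor, changed the other way, from 102 ± 3.70 to 116 ± 6.96 CPM with a log2 fold change of 0.19 (adjusted p = 0.0173), higher in 4 of 4 mice in CPM. In TPM *Nab1* was lower with bilirubin in mice 1 and 2 (64.7 against 68.0 and 52.5 against 53.4) and higher in mice 3 and 4. With the offset for transcript length its log2 fold change was 0.11 (adjusted p = 0.461), and it did not pass without mouse 2, 3 or 4 either (0.0600 to 0.128).

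*Egr1*, the first described factor of its family, was the most variable gene of the group. With vehicle, mice 1 to 4 had 173, 97, 307 and 159 counts of it, or 3.64, 2.57, 7.04 and 3.74 CPM. With bilirubin they had 425, 68, 130 and 76 counts, or 12.2, 1.88, 3.24 and 1.89 CPM. *Egr1* was thus higher with bilirubin in mouse 1, by 1.74 on the log2 scale, and lower in mice 2, 3 and 4, by -0.44, -1.11 and -0.96. The mean CPM was higher with bilirubin (4.81 ± 4.99 against 4.25 ± 1.93, SD, n = 4 each) but the fitted log2 fold change was -0.17 ± 0.45 (SE), with an adjusted p of 0.890 (edgeR). It passed in 1 of 12 alternatives, without mouse 1, where the log2 fold change was -0.88 (adjusted p = 0.00643), and in 4 alternatives its sign was positive, by 0.10 to 0.19. The bilirubin library of mouse 1 was the shallowest, at 34142781 counts, and the part of depth in this value was not tested. *Egr3*, a further family gene, was split in the same way, at 1.40 in mouse 1 and -1.66, -0.56 and -1.37 in the others on the log2 scale, but with only 3 to 24 counts a library (adjusted p = 0.725).

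*Atf3*, a basic leucine zipper factor induced by stress that often represses inflammatory genes, had the highest level per length and no change past the threshold. It was at 187, 199, 197 and 177 CPM with vehicle and 157, 210, 170 and 181 CPM with bilirubin, lower in mice 1 and 3 and higher in mice 2 and 4. Its log2 fold change was -0.09 with an interval of -0.21 to 0.03 (adjusted p = 0.474), and *Atf3*-201 held 89.0% of its counts with vehicle and 88.8% with bilirubin. *Maff*, one of the small MAF proteins, which lack an activation domain and pair with NRF2 and related factors, was at 7.32, 8.93, 7.06 and 6.87 CPM with vehicle and 3.94, 8.08, 8.28 and 7.34 CPM with bilirubin. The culture of mouse 1 was the low one, and the log2 fold change of *Maff* was -0.16 over all mice (adjusted p = 0.676) and 0.06 without mouse 1 (adjusted p = 0.790). *Atf3* (chromosome 1, 190902493 to 190950241, minus strand) and *Maff* (chromosome 15, 79230821 to 79243276, plus strand) passed in 0 of 12 alternatives, DESeq2 and limma-voom included, and their unadjusted p-values were 0.180 and 0.376.

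**Figure D4:**
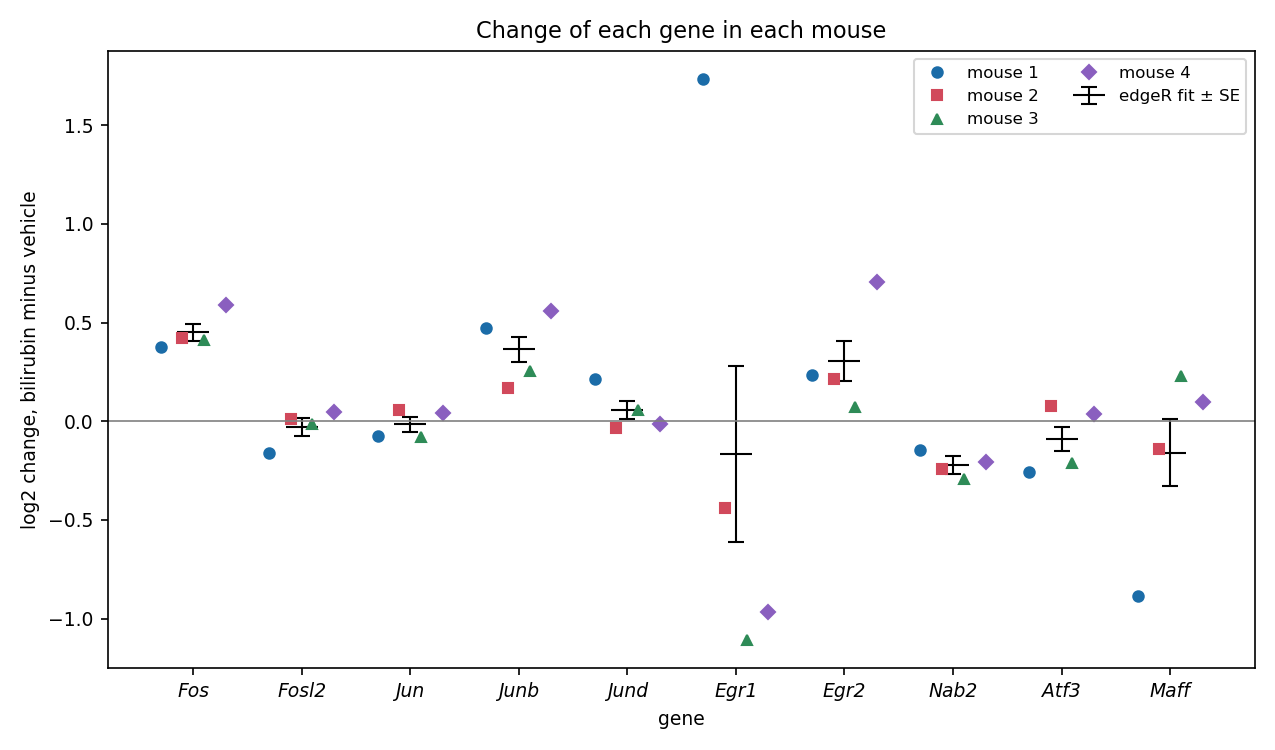
Change of each of the 10 genes within each mouse (colored points, log2 CPM of the bilirubin culture minus that of the vehicle culture) beside the edgeR estimate with its SE (black). The points of *Fos*, *Junb* and *Egr2* lay above 0 and those of *Nab2* below 0 in all 4 mice, and *Egr1* ranged from -1.11 to 1.74.

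Measured against the 4.49% and 3.04% of all tested genes that rose and fell, 2 of the 10 genes rose and 1 fell. *Junb* and *Egr2* were the 2 with no overlap upward (5.93% of all genes) and *Nab2* the 1 with no overlap downward (4.69%). In all 4 mice, 3 of the 10 genes were higher and 1 was lower, against 1984 (14.5%) and 1909 (13.9%) of all tested genes. Counts this small over 10 genes were not tested as a set.

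The wider pathway was described with lists of related genes, 121 of whose 127 genes were tested, 15 of them higher, 12 lower and 94 not past the threshold. Over all tested genes 4.49% were higher and 3.04% lower, and since the lists were chosen with results known and hold few genes each, their counts were not tested against these shares. Without mouse 1, when 1026 of 13758 genes were higher, 28 of the listed genes were higher, namely 4 of the other AP-1 and basic leucine zipper factors, 1 around EGR, 6 immediate-early genes, 3 of the MAP kinase list, 7 targets and 7 heat shock genes. Among 26 other AP-1 and basic leucine zipper factors, 1 rose and 3 fell, with a median log2 fold change of -0.01. *Nfe2l2*, which encodes NRF2, the regulator of antioxidant genes, rose by 0.19 (adjusted p = 0.0262). Among those that fell were *Fosb*, as given above, and *Cebpa*, a factor of myeloid differentiation, which fell by 0.41 (adjusted p = 0.000481), both without overlap between groups. *Nfe2l2* passed in 7 of 12 alternatives, with adjusted p-values of 0.0551 to 0.163 without mouse 2, 3 or 4, and *Cebpa* in all 12. *Maf*, which encodes c-MAF, had a log2 fold change of -0.25 (adjusted p = 0.436), being higher in mouse 1 and lower in the other 3, and of -0.49 (adjusted p = 0.000211) without mouse 1. Of the small MAF genes beside *Maff*, *Mafg* had a log2 fold change of -0.00097 and *Mafk* of -0.14, and neither passed (adjusted p = 0.993 and 0.116). *Jdp2* and *Batf3*, which encode partners of JUN proteins, had log2 fold changes of 0.22 and 0.08 and did not pass either (adjusted p = 0.121 and 0.901), though *Jdp2* did without mouse 1 (0.0296).

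Around EGR and the serum response, 8 of 9 genes were tested, 1 rose (*Nab1*) and 1 fell, with a median of -0.03. The gene that fell was *Mrtfb*, a co-activator of serum response factor, by 0.20 on the log2 scale (adjusted p = 0.0221), passing in 7 of 12 alternatives, as did *Nab1*. Without mouse 2, 3 or 4 the adjusted p of *Mrtfb* was 0.0604 to 0.160. *Srf* and its partners *Elk1*, *Elk3* and *Elk4* had log2 fold changes between -0.05 and -0.0013 and did not pass, and *Egr4* had 0 counts in every library.

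Of 30 other immediate-early genes 29 were tested, 5 rose and 2 fell, with a median of -0.03. *Ier3*, an immediate-early gene linked to cell survival, rose most, from 12.2 ± 0.505 to 24.0 ± 4.60 CPM (SD, n = 4 each). Its log2 fold change was 0.96 (adjusted p = 0.000723), with all 4 mice higher and no overlap. *Dusp1*, the phosphatase that switches off p38 and JNK, rose by 0.29 (adjusted p = 0.0174) in all 4 mice, passing in 7 of 12 alternatives, with an adjusted p of 0.0734 to 0.0847 without mouse 2, 3 or 4. *Klf4*, a zinc finger factor of monocytes and macrophages, and *Btg1*, an antiproliferative gene, each rose by 0.30, and *Sgk1*, a kinase gene, by 0.27, while *Plk3*, a kinase gene of the stress response, fell by 0.37 and *Rhob*, a short-lived GTPase gene, by 0.25. *Klf4* and *Plk3* did not pass without mouse 3 (adjusted p = 0.0727 and 0.0981) or without mouse 4 (0.0609 and 0.0893). *Ier2* had a log2 fold change of -0.02 (adjusted p = 0.938). *Nr4a1* and *Zfp36*, which are often induced along with *Fos*, had log2 fold changes of -0.24 and 0.07 and did not pass.

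In the MAP kinase list 28 of 29 genes were tested, 2 rose and 1 fell, with a median of -0.02. *Map3k8*, the kinase that activates ERK downstream of inflammatory receptors, rose by 0.62 (adjusted p = 0.0346) and *Mapkapk2*, the p38 effector that stabilizes cytokine mRNAs, by 0.33 (adjusted p = 0.00309), both in all 4 mice. *Map3k8* changed by only 0.05 in mouse 2, and it passed in 9 of 12 alternatives, not without mouse 3 (adjusted p = 0.214), without mouse 4 (0.180) or with the length offset, where its log2 fold change was 0.39 (0.325). *Dusp6*, the phosphatase that removes ERK activation, fell by 0.34 (adjusted p = 0.0145). *Dusp6* passed in 8 of 12 alternatives, and its adjusted p was 0.0557 to 0.0896 without mouse 2, 3 or 4. The kinases *Mapk3*, *Mapk8*, *Mapk9* and *Mapk14* had log2 fold changes between -0.03 and 0.14 and did not pass, and RNA says nothing of their phosphorylation.

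Genes known as targets of AP-1 or EGR moved in both directions. Of 21 listed, 19 were tested, 5 rose and 4 fell (4.49% and 3.04% of all tested genes), with a median of 0.07. *Mmp9*, a gelatinase gene, rose by 5.72, *Il1b* by 2.80, *Ptgs2*, the inducible cyclooxygenase, by 1.11, *Tnf* by 0.79 and the adhesion gene *Icam1* by 0.77, all higher in 4 of 4 mice. With vehicle *Mmp9* and *Il1b* averaged only 0.262 and 0.803 CPM, so the size of their rise rests on few vehicle counts. *Ptgs2* averaged 2.94 CPM with vehicle and had at least 90 counts in every library. Its change within mice was uneven, from 0.18 to 1.81 on the log2 scale. *Tnf* and *Icam1* averaged 37.2 and 51.5 CPM with vehicle. *Plau*, the urokinase gene, fell by 0.88, *Spp1*, the osteopontin gene, by 0.60, the chemokine gene *Ccl2* by 0.59 and *Ccnd1*, the cyclin D1 gene, by 0.54, all lower in 4 of 4 mice. *Mmp9*, *Il1b*, *Tnf*, *Icam1*, *Plau*, *Spp1* and *Ccnd1* passed in all 12 alternatives, *Ccl2* in 11 and *Ptgs2* in 7, its adjusted p being 0.0883 to 0.214 without mouse 2, 3 or 4. *Mmp3* and *Il6* had at most 4.02 and 7 counts and were not tested. These genes also have other regulators, and which of them act here was not tested.

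Heat shock genes served as a list of another stress response. Of 12, 11 were tested, 1 rose and 1 fell, with a median of 0.08. *Hspa1b*, an inducible HSP70 gene that is nearly identical to *Hspa1a* in sequence, so that reads may be split between them, rose from 1.67 ± 0.457 to 3.26 ± 0.856 CPM (adjusted p = 0.0434), and *Hsf1*, the heat shock factor gene, fell by 0.20 (adjusted p = 0.0434). *Hspa1a* had a log2 fold change of 0.60 (adjusted p = 0.144). *Hspa1b* passed in 9 of 12 alternatives, not without mouse 2 (adjusted p = 0.182), without mouse 3 (0.246) or with the length offset (0.0940). *Hsf1* passed in 6, and without mouse 2, 3 or 4 its adjusted p was 0.159 to 0.189.

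**Figure D5:**
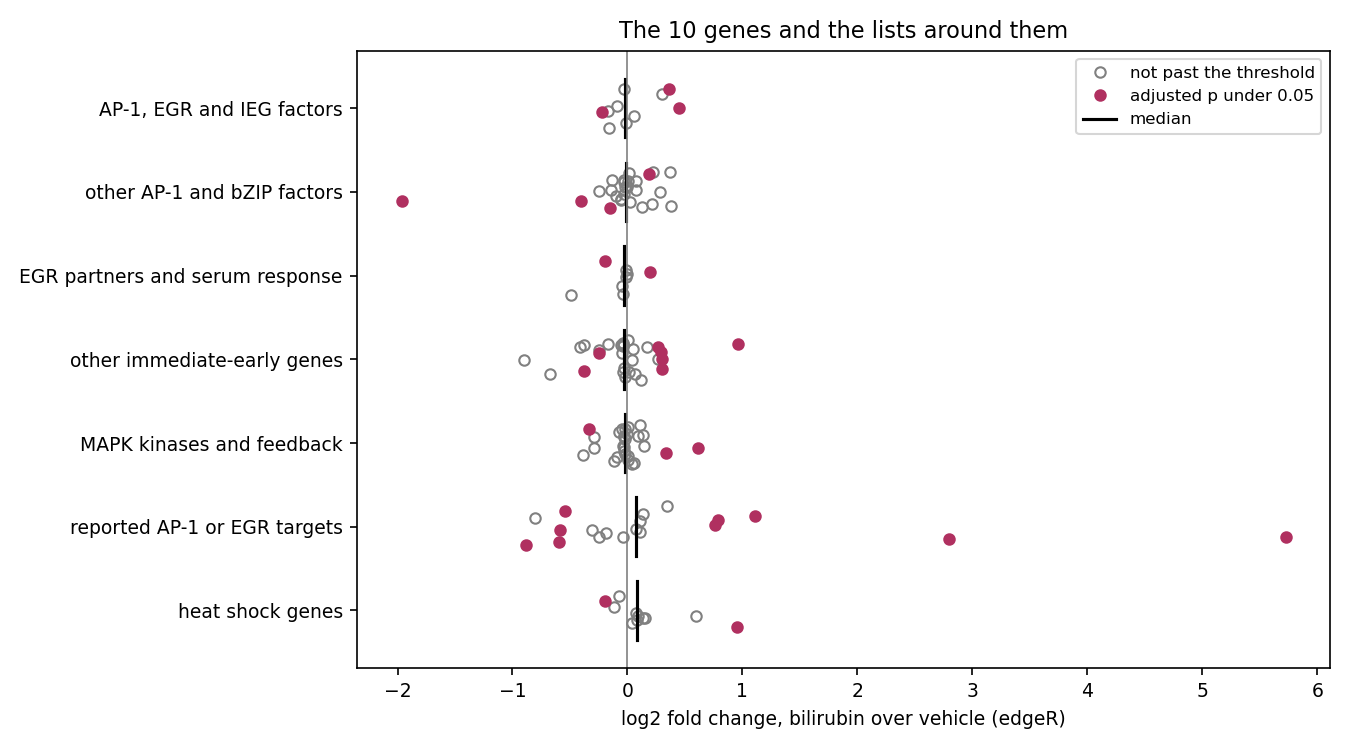
Fitted log2 fold change (edgeR) of the 10 genes and of each tested gene of the lists around them, 1 row a list, with filled points for an adjusted p under 0.05 and a bar at the median. The medians lay between -0.03 and 0.08, and *Mmp9* (5.72) and *Fosb* (-1.96) were the outermost points.

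For the 3 genes that passed, the tested genes with the most similar profile were found by the root mean square difference of mean-centered log2 CPM over the 8 libraries. Among the 3 nearest to *Fos* were *Malt1* (0.0635), a gene of NFkB signaling, and *Rnf149* (0.0664), a ubiquitin ligase gene. *Junb* was closest to *Crip1* (0.0472), *Dtd1* (0.0681) and *Ptpdc1* (0.0758), and *Nab2* to *Sh2b3* (0.0383), an adaptor gene of cytokine signaling, *Rbm38* (0.0424) and *Mppe1* (0.0454). Likeness was measured over the same libraries as the treatment difference, so that these genes differ between the groups in the same direction follows from how they were found.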

How the data were processed

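Poly-A RNA of 8 BMDM cultures was sequenced as paired-end reads. Per the labels and methods, the authors trimmed reads with Trim Galore 0.6.7 and Cutadapt 3.4, aligned them with STAR 2.7.9a to GRCm39 and quantified transcripts with Salmon 1.10.1. The authors deposited estimated counts (expected counts) per gene, not scaled for depth or length, and estimated counts and TPM per transcript for each library. How strand was used in counting is not given in the sources used here. Salmon divides reads among similar transcripts, so counts of near-identical genes are uncertain.

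Rounded counts went into edgeR 4.0.16 under R 4.3.3 (TMM scaling, filterByExpr with at least 10 counts and a total of 15, mouse and treatment as terms, the quasi-likelihood test, Benjamini-Hochberg adjustment over 13722 genes, threshold 0.05). The study used limma with the mouse as covariate, and limma 3.58.1 (voom) and DESeq2 1.42.0 were alternatives, as were the model without mouse, other scaling and filters, a transcript length offset and each mouse left out. SEs were derived from the F statistic, and approximate 95% intervals from the SE by the normal distribution. CPM used TMM library sizes, log2 CPM a prior count of 2, and TPM was summed per gene. The procedure was tried on simulated counts with planted changes larger than those fitted for the 10 genes. The simulation therefore does not show how well changes as small as these are recovered.

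The labels number the cultures 1 to 4 in each group. This number was read as the mouse, since the study took marrow from 4 mice, and it pairs the cultures. Deviations of the cultures of a mouse from their group means correlated at 0.108, 0.134, 0.108 and -0.0053 for mice 1 to 4 (mean 0.086), against a mean of -0.028 for different mice. With the mouse in the model, p-values rest on how far the bilirubin change varied over the 4 mice, with variance estimates shared across genes. No batch other than the culture number is in the labels. Of the 10 genes, 7 had at least 1060 counts in every library, whereas *Egr2*, *Maff* and *Egr1* had as few as 443, 137 and 68, and the part of depth in the precision was not tested.

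The 10 genes and all lists (other AP-1 and basic leucine zipper factors, EGR partners and serum response, other immediate-early genes, MAP kinases and feedback, reported AP-1 or EGR targets, heat shock genes, and markers of 7 cell classes) were chosen with earlier results of these data known. Named were the 10 genes, up to 6 genes of each list past the threshold, direct relatives of the 10, genes overlapping them on their strand (0 found) and, for each of the 10 past the threshold, the 3 genes of nearest profile. *Rhob*, *Spp1*, *Ccl2*, *Ccnd1*, *Srf*, the ELK genes, the MAP kinases, *Nr4a1*, *Zfp36*, *Hspa1a* and genes on the opposite strand were added after their values were seen. Positions are from GENCODE on GRCm39 and promoter windows from RefSeq. Results of some listed genes are not reported here, though counts and medians include them. Raw reads and proteins were not analysed here.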

Additional observations from a re-analysis of the deposited data

Results flagged for a closer look

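*Egr1* in the bilirubin culture of mouse 1 stood far from the other bilirubin cultures, at 12.2 CPM against 1.88, 3.24 and 1.89 CPM. The gap to the nearest culture was 0.869 of the range of the group, above Dixon's 95% critical value for 4 samples. In all, 30 groups were examined, and 1 stood out in this way, where chance gives about 1 in 20.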

How the results depend on the processing

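Of the genes named first, *Fos* passed in all 12 alternatives, *Junb* in 10, *Nab2* in 8, and *Egr1* and *Egr2* in 1 each, as given with their values above. Without the mouse in the model (no pairing of cultures), 686 genes passed against 1033 with it, 458 higher and 228 lower, and *Fos*, *Junb* and *Nab2* passed in both. Listed genes that then did not pass included *Nab1*, *Mrtfb*, *Dusp1*, *Klf4*, *Dusp6*, *Ccl2*, *Ptgs2* and *Hsf1* (adjusted p of 0.05002 to 0.219). Without a filter on low counts, 26021 genes were tested, 918 were higher and 774 lower, and of the listed genes 20 and 19. With an offset for transcript length 372 genes were higher and 207 lower, 8 listed genes were higher, and 0 of the 10 genes were lower. Leaving out each mouse in turn gave 265 to 1026 higher and 112 to 884 lower genes, 8 to 28 higher and 7 to 18 lower listed genes, and, among the 10 genes, 1 to 2 higher and 0 to 2 lower. The fewest came without mouse 3 and the most without mouse 1, and the cause was not tested. DESeq2 gave 639 higher and 435 lower genes and limma-voom 649 and 416. *Egr1* and *Egr3* had SEs of 0.45 and 0.61 on the log2 scale, so a change of the size fitted for *Fos* was not detectable in them.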
